A study of Mus musculus with 15 samples.

Results

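The genes described here are 33 DNA replication genes of the mouse, chosen by symbol: those that license replication origins, unwind the DNA, load and hold the sliding clamp, build and join the new strands, supply deoxynucleotides, and the E-type cyclins. They were measured in the heart apex after pressure overload. A probe named by its transcript accession was found for 32 of the 33, among 14918 named genes tested, and every probe used for them was well above background on all 15 arrays, so no filter removed a member. Gins1, a subunit of the replicative helicase, had no probe named for it and was not analysed here.

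Male C57BL6 mice of 10 weeks underwent transverse aortic constriction (TAC), in which the aorta is narrowed by a suture so that the left ventricle pumps against a higher pressure, or a sham operation, and total RNA of the apex was hybridised to 1-colour Agilent arrays 3 days later. Groups filed as Cre carried cre under a myosin heavy chain promoter (genotype MHC-cre), and groups filed as KO carried the same cre together with the Klf4 allele (MHC-cre-klf4), so cre was present in all 4 groups. Sham arrays numbered 4 for Cre and 4 for KO, TAC arrays 3 for Cre and 4 for KO, and the labels speak of 4 animals per group. Klf4 is a zinc-finger transcription factor. As background, a myosin heavy chain promoter of this kind acts in cardiomyocytes, and other cells of the apex would keep the gene. The sources used here do not say which of the heart's myosin promoters drove the transgene.

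Before a cell copies its DNA, the origin factors Cdc6 and Cdt1 load rings of Mcm2 to Mcm7 onto chromatin, and at the start of S phase Cdc45 and the GINS complex turn these rings into active helicases. Polymerase alpha with its primase starts each strand, the Rfc complex loads the Pcna clamp, and polymerases delta and epsilon extend it. Transcripts of many of these proteins are made in waves at the transition from G1 to S phase under E2F factors. Most cardiomyocytes of the adult mouse have left the cell cycle, while fibroblasts, endothelial cells and infiltrating leukocytes of the heart can divide.

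Levels are given as log2 of the processed signal after subtraction of each array's 75th percentile, so that 0 is the 75th percentile of the array, and are compared between arrays for 1 gene at a time. A fold is the difference of group means on this scale with its standard error (SE). A gene was called when the limma test, adjusted by Benjamini-Hochberg over 25787 features (named genes and unnamed probes), gave an adjusted p under 0.05. On 14 arrays the median signal ran from 88.2 to 147.1, and from 65.6% to 75.4% of the probes were well above background. The array filed as KO TAC replicate 4 stood apart, with a median signal of 453.9, 95.9% of its probes well above background and a median correlation with the other arrays of 0.807, against 0.961 to 0.982 for the others. Counts of members called in the TAC comparisons, and the folds of some of the members it moved, are given with and without it. Other counts, among them those of other gene lists and cell type markers, mostly include it. Of the cardiomyocyte markers all 13 measured were well above background on each array.

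Labels of the series conflicted in 2 ways. The description field named the other operation for 7 of 15 samples, and with its groups 0 of 25787 features were called by limma in the mean TAC effect and 0 of the 32 members had an unadjusted p under 0.05. The operation of the title and source name is used throughout. In addition, 14 of the 15 scanner files matched a column of the deposited value table, and each of these stood there with the genotypes exchanged and the operation unchanged. KO TAC replicate 4 matched no column. Klf4 itself did not settle the genotype: its probe lay at 3.98 ± 0.25 in Cre sham, 3.94 ± 0.51 in KO sham, 4.14 ± 0.13 in Cre TAC and 4.15 ± 0.44 in KO TAC (mean ± SD, n = 4, 4, 3 and 4), with a KO minus Cre difference of -0.045 (SE 0.27) after sham and 0.017 (SE 0.29) after TAC. Whether that probe lies in a deleted part of the gene was not tested. The direction of every genotype difference is therefore unsettled, and the TAC effect is given first as the mean over both genotypes, which does not change if all genotype labels are exchanged.

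Short stretches of promoters are shown for 5 of the 11 members whose window held the letters of the E2F site, the element most tied to this gene group (these 5 were chosen for display), and for the members with the largest TAC response. RefSeq promoter windows of the assembly GRCm38.p6, from 250 bases before to 50 bases after the annotated start, were matched for 26 of the 33 members and not for Ccne2, Gins2, Mcm4, Prim2, Rfc2, Gins1 and Pole. The E2F letters searched on both strands were TTTCCCGC, TTTCGCGC, TTTGCCGC and TTTGGCGC. In the lines that follow, 5′ to 3′ on the strand of the gene, capitals mark bases that match these letters on either strand. The stretches lie at chr1:128359735-128359825 (minus strand) for Mcm6, chr8:75109346-75109377 (plus) for Mcm5, chr11:98908003-98908030 (plus) for Cdc6, chr5:151651191-151651228 (minus) for Rfc3 and chrX:93632276-93632303 (minus) for Pola1. All but the Rfc3 stretch end before the annotated start.
Mcm6: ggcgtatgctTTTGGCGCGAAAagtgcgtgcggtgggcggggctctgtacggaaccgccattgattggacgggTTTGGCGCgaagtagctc
Mcm5: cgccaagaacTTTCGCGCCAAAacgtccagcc
Cdc6: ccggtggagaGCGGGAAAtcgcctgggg
Rfc3: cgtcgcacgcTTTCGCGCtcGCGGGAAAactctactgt
Pola1: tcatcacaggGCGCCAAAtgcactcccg

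The Mcm6 stretch held 3 such matches and the Mcm5 and Rfc3 stretches 2 each, some of them overlapping on opposite strands. An E2F match was present in 11 of 26 member promoters (42.3%), those of Cdc6, Cdt1, Mcm3, Mcm5, Mcm6, Mcm7, Rfc3, Pola1, Pole2, Pold1 and Lig1, against 3.29% of 17492 protein-coding genes. Within the 100 bases before the start it was present in Mcm6 and Rfc3, against 1.19% of the genes. It was present in 8 of the 20 matched members that rose in the mean TAC effect and in 3 of the other 6. A match is a description of letters and not a bound site, and members and window were chosen without a test.

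Tyms, Rrm2 and Tk1 lead the TAC response described next, and their windows held no E2F match of these letters. The 100 bases before their starts are shown, with capitals for the CCAAT box (CCAAT) and the GC box (GGGCGG), read on the strand shown or its complement. They lie at chr5:30073626-30073725 (minus strand) for Tyms, chr12:24708154-24708253 (plus) for Rrm2 and chr11:117826015-117826114 (minus) for Tk1.
Tyms: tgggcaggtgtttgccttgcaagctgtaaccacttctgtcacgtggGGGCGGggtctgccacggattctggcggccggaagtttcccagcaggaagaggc
Rrm2: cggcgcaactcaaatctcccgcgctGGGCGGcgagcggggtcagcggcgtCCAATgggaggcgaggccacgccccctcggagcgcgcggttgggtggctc
Tk1: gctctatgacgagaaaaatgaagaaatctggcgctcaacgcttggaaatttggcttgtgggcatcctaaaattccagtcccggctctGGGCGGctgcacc

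Each of the 3 stretches held a GC box and the Rrm2 stretch also a CCAAT box. Over the full windows a GC box was found in 18 of 26 members (69.2%, against 49.2% of all genes) and a CCAAT box in 15 (57.7%, against 42.3%). The CHR letters TTTGAA, an element of many mitotic promoters, were found in 3 member windows, those of Mcm2, Cdc45 and Fen1 (11.5%, against 18.5%). In the Mcm7 window an E2F and a CCAAT match shared 1 base, and no other matches of different motifs overlapped in the members.

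After 3 days of pressure overload most of the replication genes were higher than after sham. In the mean of both genotypes 23 of the 32 members rose, 1 fell (Rfc1) and 8 were not called, and the median member fold was 0.94 on the log2 scale. Over all features 27.0% were called, 13.3% higher and 13.7% lower, and the median fold was 0.044. The largest rises were those of Tyms (4.94-fold), Rrm2 (4.2-fold) and Tk1 (3.51-fold), all enzymes of deoxynucleotide supply. Without KO TAC replicate 4, 27 members rose and 1 fell, with a median of 1.01, against 38.1% of features called. In these bulk samples more cells of a dividing type and more RNA per cell cannot be told apart.

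The groups did not overlap for 15 members, of which 14 were higher on each of the 7 TAC arrays than on any of the 8 sham arrays. Of all features 7.45% did not overlap and 3.74% were higher on each TAC array. Scaling the arrays by their medians in place of the 75th percentile moved the median fold of all features from 0.044 to -0.16, and the members' median fold stayed 0.90 above it under both. That scaling widened the spread and left 8 members called, all higher, against 12.4% of features. With KO TAC replicate 4 also left out 28 were called (27 higher), against 36.7% of features. Under the quantile and median scalings no called member changed its direction, whereas the sign of Pold1 (median scaling) and of Pola1 (quantile), neither of them called, did.

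**Figure D1:**
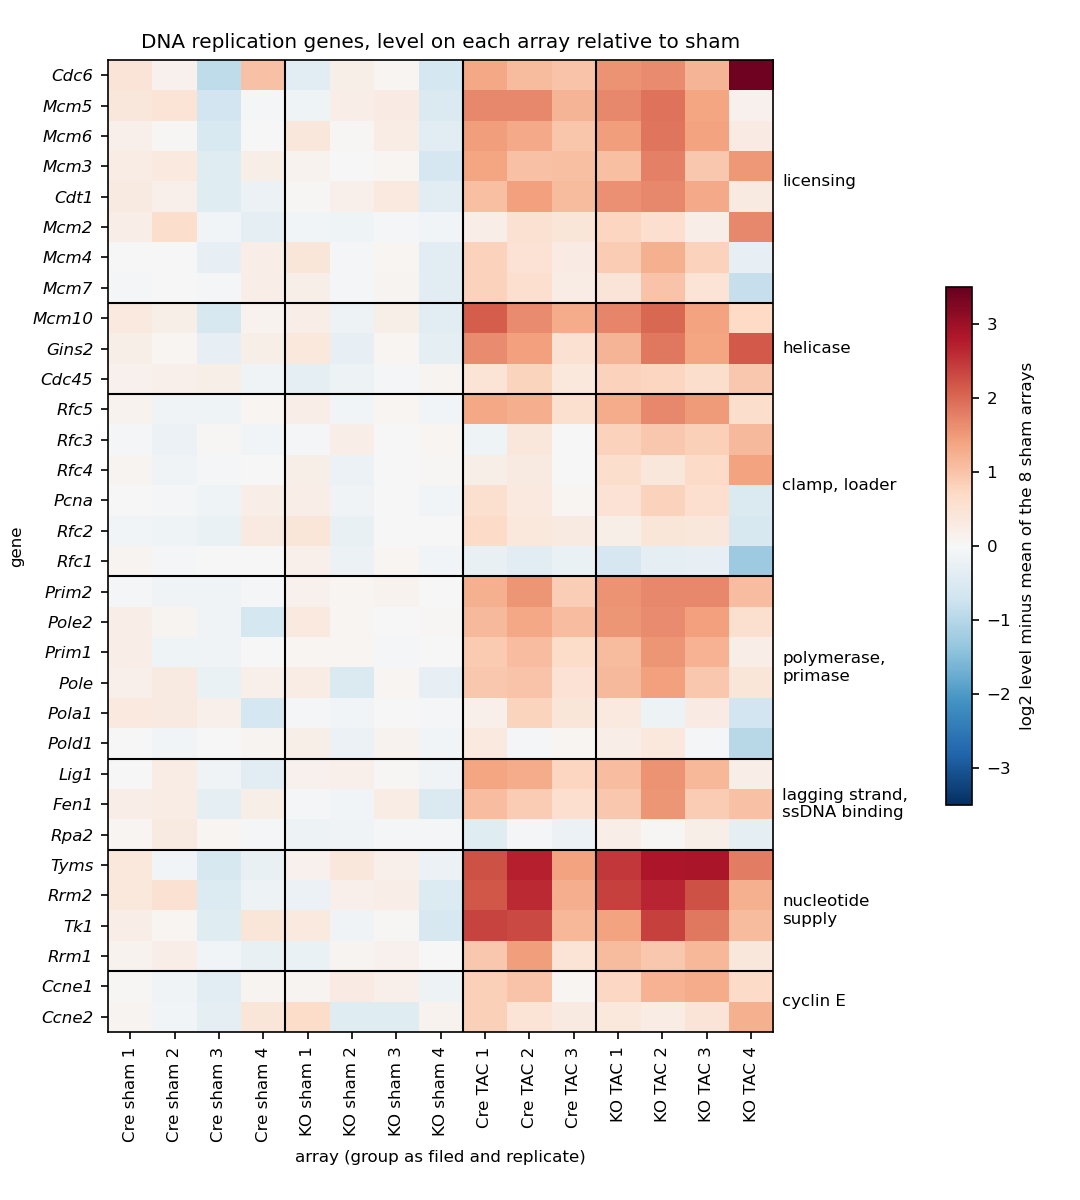
Level of 32 DNA replication genes (rows, by role) on each of the 15 arrays (columns, by group as filed and replicate), as the log2 level minus the mean of the 8 sham arrays (colour). The 7 TAC columns are mostly red, with array medians from 0.52 to 1.49, while the sham columns lie between -0.19 and 0.17, and Rfc1 is blue in the TAC columns.

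Licensing genes place the helicase at origins. Of the 8 measured, 6 rose in the mean TAC effect, none fell, and Mcm4 and Mcm7 were not called. The median fold was 1.22. Beside this count and those of the other role groups below stand 13.3% of all features called higher and 13.7% lower. Mcm3, a subunit of the helicase ring, lay at -1.33, -1.25, -2.01 and -1.39 in Cre sham and -1.47, -1.61, -1.53 and -2.18 in KO sham, and after TAC at -0.21, -0.58 and -0.54 in Cre and -0.53, 0.18, -0.66 and -0.088 in KO. Every TAC array was above every sham array, and the fold was 1.24 (SE 0.18, adjusted p = 0.00025). Cdt1, which brings the ring to the origin, lay at -0.42, -0.55, -1.16 and -0.92 in Cre sham and -0.70, -0.56, -0.40 and -1.11 in KO sham, and after TAC at 0.31, 0.70 and 0.38 in Cre and 0.87, 0.95, 0.61 and -0.42 in KO. Its fold was 1.21 (SE 0.21, adjusted p = 0.0011), and KO TAC replicate 4 was the only TAC array within the sham range. Mcm6 lay at 2.08, 1.93, 1.36 and 1.92 in Cre sham and 2.28, 1.93, 2.17 and 1.53 in KO sham, and after TAC at 3.36, 3.23 and 2.86 in Cre and 3.37, 3.78, 3.30 and 2.18 in KO. The same array was again the lowest of the TAC arrays, and the fold was 1.25 (SE 0.23, adjusted p = 0.0013).

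Mcm5, another ring subunit, lay at -0.13, -0.066, -1.20 and -0.59 in Cre sham and -0.70, -0.31, -0.26 and -1.05 in KO sham, and after TAC at 1.14, 1.14 and 0.65 in Cre and 1.14, 1.37, 0.85 and -0.40 in KO. It rose by 1.39 (SE 0.27, adjusted p = 0.0021), again with KO TAC replicate 4 alone inside the sham range. Cdc6, the ATPase that loads the ring, lay at -3.44, -3.75, -4.80 and -2.87 in Cre sham and -4.27, -3.70, -3.81 and -4.52 in KO sham, and after TAC at -2.55, -2.79 and -2.90 in Cre and -2.33, -2.24, -2.72 and -0.50 in KO. It rose by 1.55 (SE 0.34, adjusted p = 0.0047), here with KO TAC replicate 4 as the highest array. Without that array the fold was 1.31 (adjusted p = 0.0017), and a second, dimmer probe gave 0.94 over all arrays. Mcm2 lay at -0.87, -0.48, -1.20 and -1.43 in Cre sham and -1.20, -1.24, -1.17 and -1.20 in KO sham, and after TAC at -0.88, -0.57 and -0.68 in Cre and -0.34, -0.52, -0.87 and 0.58 in KO. The Cre arrays overlapped between the operations and the KO arrays did not, and KO TAC replicate 4 was the highest array. Mcm2 rose by 0.60 (SE 0.20, adjusted p = 0.043), a call that was lost without any 1 of 11 arrays, at adjusted p up to 0.11, and kept without Cre sham replicate 2 or KO TAC replicates 2, 3 or 4. Mcm4 was not called: it lay at 1.5, 1.53, 1.21 and 1.74 in Cre sham and 1.92, 1.45, 1.57 and 1.12 in KO sham, and after TAC at 2.30, 2.00 and 1.78 in Cre and 2.38, 2.74, 2.31 and 1.21 in KO, a fold of 0.59 (SE 0.21, adjusted p = 0.058). Mcm7, the remaining ring subunit, lay at 1.19, 1.25, 1.18 and 1.5 in Cre sham and 1.46, 1.19, 1.35 and 0.89 in KO sham, and after TAC at 2.06, 1.84 and 1.5 in Cre and 1.71, 2.24, 1.73 and 0.45 in KO. Its fold was 0.41 (SE 0.23, adjusted p = 0.21). In both genes KO TAC replicate 4 was low, for Mcm7 the lowest of the 15 arrays, and of the other 6 TAC arrays 1 lay within the sham range for Mcm4 (Cre replicate 3) and 0 did for Mcm7. Without that array Mcm4 rose by 0.75 (adjusted p = 0.0016) and Mcm7 by 0.59 (adjusted p = 0.0041). All 8 licensing genes were then called, against 38.1% of features. Mcm4 was also called without KO sham replicate 1 (adjusted p = 0.049).

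The 3 measured genes that turn the loaded ring into a moving helicase all rose, with a median fold of 1.43. Mcm10, which binds the helicase as it fires, lay at -2.29, -2.44, -3.21 and -2.52 in Cre sham and -2.39, -2.83, -2.43 and -3.01 in KO sham, and after TAC at -0.51, -0.98 and -1.35 in Cre and -0.93, -0.62, -1.23 and -1.94 in KO. The groups did not overlap, and the fold was 1.58 (SE 0.22, adjusted p = 0.00023). Gins2, a subunit of the GINS complex, lay at -2.15, -2.29, -2.65 and -2.15 in Cre sham and -2.0, -2.65, -2.30 and -2.68 in KO sham, and after TAC at -0.70, -0.93 and -1.82 in Cre and -1.18, -0.50, -0.98 and -0.21 in KO, a fold of 1.43 (SE 0.21, adjusted p = 0.00027). Here every TAC array was above every sham array and KO TAC replicate 4 was the highest of them; without it the fold was 1.34 (adjusted p = 0.00023). Cdc45, the third part of the active helicase, lay at -3.39, -3.38, -3.34 and -3.67 in Cre sham and -3.85, -3.72, -3.58 and -3.45 in KO sham, and after TAC at -3.08, -2.77 and -3.19 in Cre and -2.74, -2.78, -2.94 and -2.62 in KO. Its groups did not overlap either, and its fold of 0.66 (SE 0.11, adjusted p = 0.00078) was the smallest of the 3.

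Of 6 members of the sliding clamp and its loader 3 rose, 1 fell and 2 were not called, with a median fold of 0.41. Over all features 13.3% were called higher and 13.7% lower, and the part that fell was near the latter share. Rfc5, a small loader subunit, lay at -0.066, -0.32, -0.34 and -0.12 in Cre sham and 0.036, -0.29, -0.12 and -0.29 in KO sham, and after TAC at 1.17, 1.09 and 0.38 in Cre and 1.10, 1.5, 1.29 and 0.43 in KO. All TAC arrays exceeded all sham arrays, with a fold of 1.17 (SE 0.17, adjusted p = 0.00032). Rfc3, another small subunit, lay at -2.70, -2.86, -2.61 and -2.76 in Cre sham and -2.69, -2.41, -2.64 and -2.58 in KO sham, and after TAC at -2.80, -2.26 and -2.66 in Cre and -1.86, -1.72, -1.81 and -1.51 in KO. The 4 KO TAC arrays were above all others, the Cre TAC arrays overlapped with sham, and the mean fold was 0.51 (SE 0.11, adjusted p = 0.0039). Rfc4 lay at 0.83, 0.60, 0.70 and 0.76 in Cre sham and 0.95, 0.53, 0.73 and 0.79 in KO sham, and after TAC at 0.94, 1.06 and 0.75 in Cre and 1.36, 1.12, 1.41 and 2.15 in KO. It showed the same order, with a mean fold of 0.47 (SE 0.15, adjusted p = 0.028), and the call was lost at adjusted p up to 0.079 without any 1 of 5 arrays (Cre sham replicates 2 and 3, Cre TAC replicates 1 and 2, and KO sham replicate 2). Without KO TAC replicate 4, its highest array, the Rfc4 fold was 0.37 (adjusted p = 0.0087).

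Pcna, the clamp itself and a common marker of dividing cells, was not called. It lay at 3.18, 3.1, 3.02 and 3.39 in Cre sham and 3.41, 3.04, 3.17 and 3.06 in KO sham, and after TAC at 3.74, 3.52 and 3.24 in Cre and 3.68, 3.97, 3.76 and 2.67 in KO. Its fold was 0.34 (SE 0.18, adjusted p = 0.20). Rfc2 lay at 2.56, 2.48, 2.42 and 2.95 in Cre sham and 3.07, 2.38, 2.65 and 2.62 in KO sham, and after TAC at 3.32, 3.00 and 2.94 in Cre and 2.83, 3.06, 3.04 and 2.09 in KO, a fold of 0.28 (SE 0.17, adjusted p = 0.27). For both, KO TAC replicate 4 was the lowest of all 15 arrays, and without it Pcna rose by 0.48 (adjusted p = 0.0041) and Rfc2 by 0.39 (adjusted p = 0.030). Rfc1, the large loader subunit, was the only member that fell; like those of Mcm2, Mcm5, Cdc6, Pole and Rrm1, its array values are given although the naming rule did not ask for them. Rfc1 lay at 2.92, 2.75, 2.83 and 2.82 in Cre sham and 2.98, 2.62, 2.89 and 2.72 in KO sham, and after TAC at 2.55, 2.45 and 2.59 in Cre and 2.24, 2.47, 2.54 and 1.55 in KO. All TAC arrays were below all sham arrays, and the fold was -0.45 (SE 0.14, adjusted p = 0.033). That call was lost at adjusted p up to 0.082 without any 1 of 8 arrays (Cre sham replicates 1, 3 and 4, each Cre TAC array, and KO sham replicates 1 and 3), with folds of the same sign, and kept without KO TAC replicate 4 (-0.34, adjusted p = 0.0083).

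**Figure D2:**
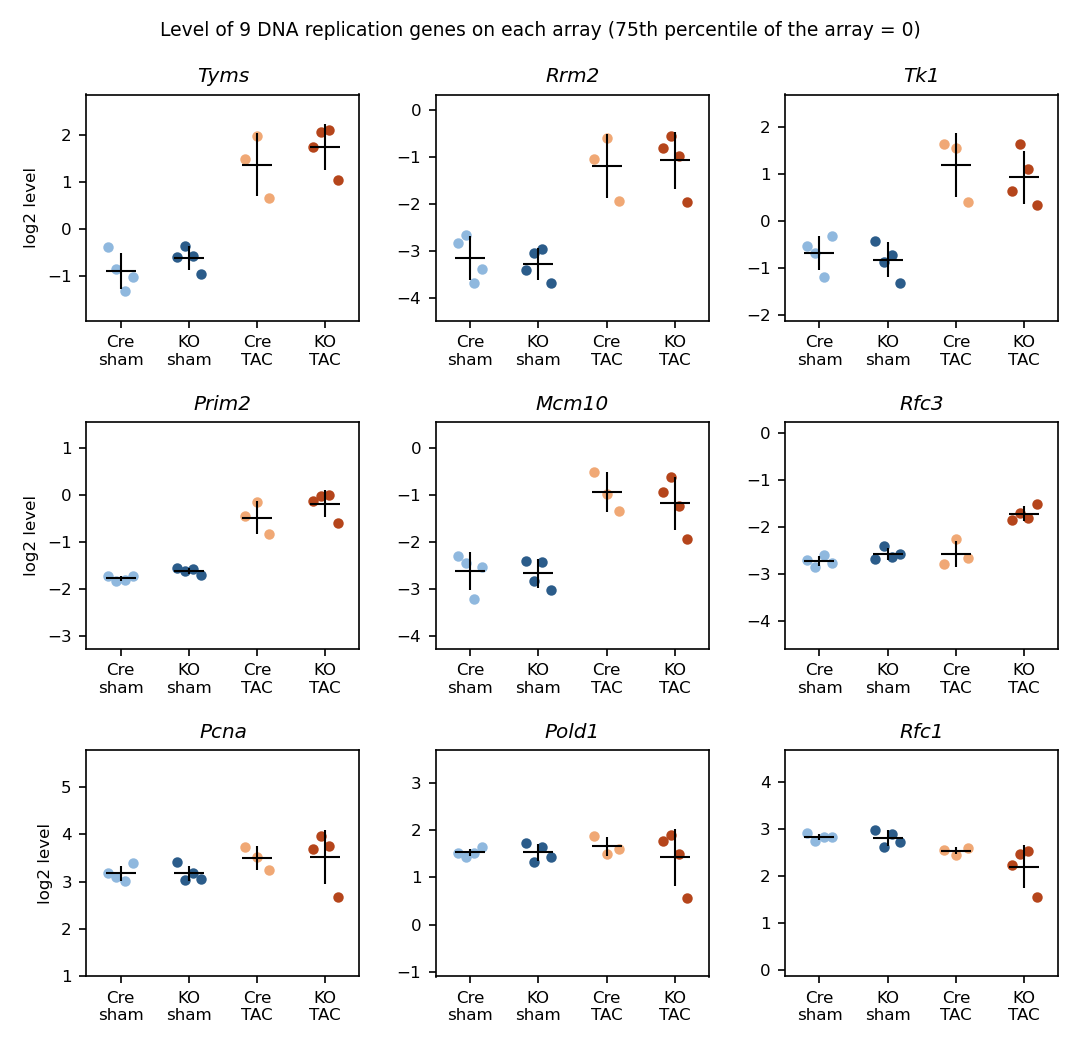
Log2 level (y axis, 0 = 75th percentile of the array) of 9 members on each array, by group as filed (x axis; points are arrays, bars the mean and SD of 4, 4, 3 and 4 arrays). Tyms, Rrm2, Tk1, Prim2 and Mcm10 separate TAC from sham, Rfc3 is high in KO TAC (-1.86 to -1.51), Pcna and Pold1 overlap between the operations, and Rfc1 is lower after TAC.

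Among polymerase and primase genes 4 of 6 rose, with a median fold of 0.93, and the catalytic subunits of polymerases alpha and delta were not called. Prim2, the large primase subunit, lay at -1.73, -1.82, -1.81 and -1.73 in Cre sham and -1.55, -1.62, -1.57 and -1.70 in KO sham, and after TAC at -0.46, -0.15 and -0.83 in Cre and -0.12, -0.014, -0.0043 and -0.60 in KO. The groups were far apart, and its fold of 1.36 (SE 0.13, adjusted p = 2.6e-05) had the smallest p among the members. Prim1, the catalytic primase subunit, lay at -0.77, -1.14, -1.11 and -1.0 in Cre sham and -0.94, -0.94, -1.07 and -1.0 in KO sham, and after TAC at -0.089, 0.084 and -0.35 in Cre and 0.10, 0.56, 0.23 and -0.76 in KO, a fold of 0.95 (SE 0.17, adjusted p = 0.0012). Pole2, the second subunit of polymerase epsilon, lay at -3.29, -3.42, -3.64 and -4.13 in Cre sham and -3.18, -3.45, -3.51 and -3.46 in KO sham, and after TAC at -2.38, -2.15 and -2.44 in Cre and -1.96, -1.86, -2.08 and -2.94 in KO. Neither gene's operations overlapped, and the Pole2 fold was 1.24 (SE 0.18, adjusted p = 0.00026). Pole, its catalytic subunit, lay at -0.72, -0.60, -1.14 and -0.73 in Cre sham and -0.64, -1.41, -0.84 and -1.19 in KO sham, and after TAC at 0.038, 0.10 and -0.41 in Cre and 0.23, 0.54, 0.041 and -0.49 in KO. It rose by 0.90 (SE 0.18, adjusted p = 0.0022).

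Pola1, the catalytic subunit of polymerase alpha, lay at -0.70, -0.71, -0.84 and -1.65 in Cre sham and -1.09, -1.14, -1.04 and -1.09 in KO sham, and after TAC at -0.85, -0.25 and -0.60 in Cre and -0.68, -1.21, -0.75 and -1.71 in KO. Sham and TAC arrays were mixed, KO TAC replicate 4 was the lowest of the 15 arrays, and the fold over all arrays was 0.21 (SE 0.19, adjusted p = 0.50). Pold1, that of polymerase delta, lay at 1.52, 1.44, 1.52 and 1.64 in Cre sham and 1.72, 1.33, 1.64 and 1.44 in KO sham, and after TAC at 1.87, 1.49 and 1.61 in Cre and 1.77, 1.89, 1.49 and 0.56 in KO. Its fold was 0.012 (SE 0.18, adjusted p = 0.97), its second probe gave -0.017, and without KO TAC replicate 4, the lowest of the 15 arrays, the fold was 0.16 (adjusted p = 0.27). Prim2 and Pola1 belong to 1 complex, and their mean folds were 1.36 and 0.21; the difference between the 2 probes was not tested.

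Of 3 measured genes that finish the lagging strand or bind single strands, 2 rose, with a median of 0.98. Fen1, the nuclease that trims primer flaps, lay at -0.96, -0.93, -1.52 and -1.0 in Cre sham and -1.24, -1.31, -0.94 and -1.72 in KO sham, and after TAC at -0.11, -0.30 and -0.63 in Cre and -0.27, 0.34, -0.31 and -0.18 in KO. TAC and sham arrays were fully separated, and the fold was 0.98 (SE 0.16, adjusted p = 0.00064). Lig1, which seals the trimmed fragments, lay at 0.51, 0.78, 0.38 and 0.14 in Cre sham and 0.65, 0.68, 0.55 and 0.40 in KO sham, and after TAC at 1.89, 1.82 and 1.27 in Cre and 1.59, 2.09, 1.67 and 0.74 in KO. Only KO TAC replicate 4 came within the sham range, and the fold was 1.08 (SE 0.19, adjusted p = 0.0011). Rpa2, a subunit of the single-strand binding protein, was not called: it lay at -0.44, -0.20, -0.42 and -0.56 in Cre sham and -0.69, -0.62, -0.56 and -0.53 in KO sham, and after TAC at -0.92, -0.55 and -0.70 in Cre and -0.28, -0.47, -0.31 and -0.83 in KO, a fold of -0.094 (SE 0.11, adjusted p = 0.62). Its lowest array was Cre TAC replicate 1 and its highest Cre sham replicate 2, and all TAC arrays lay below that highest sham array.

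All 4 genes of deoxynucleotide supply rose, with the largest median of the 7 role groups (1.94). Tyms, thymidylate synthase, lay at -0.39, -0.85, -1.31 and -1.01 in Cre sham and -0.60, -0.35, -0.59 and -0.96 in KO sham, and after TAC at 1.48, 1.96 and 0.65 in Cre and 1.73, 2.06, 2.09 and 1.05 in KO. Sham arrays were all below 0 and TAC arrays all above it, the fold was 2.31 (SE 0.23, adjusted p = 3.3e-05), and a second probe gave 2.30. Rrm2, the S-phase subunit of ribonucleotide reductase, lay at -2.83, -2.66, -3.67 and -3.38 in Cre sham and -3.40, -3.03, -2.96 and -3.68 in KO sham, and after TAC at -1.04, -0.60 and -1.94 in Cre and -0.82, -0.54, -0.99 and -1.95 in KO, a fold of 2.07 (SE 0.26, adjusted p = 0.00012). Tk1, the thymidine kinase of the salvage pathway, lay at -0.52, -0.68, -1.18 and -0.33 in Cre sham and -0.41, -0.87, -0.71 and -1.31 in KO sham, and after TAC at 1.63, 1.55 and 0.40 in Cre and 0.65, 1.63, 1.10 and 0.34 in KO. In both genes every TAC array lay above every sham array, and the Tk1 fold was 1.81 (SE 0.25, adjusted p = 0.00020). Rrm1, the large reductase subunit, lay at 0.94, 1.03, 0.73 and 0.55 in Cre sham and 0.58, 0.90, 0.96 and 0.83 in KO sham, and after TAC at 1.74, 2.27 and 1.31 in Cre and 1.93, 1.76, 1.98 and 1.22 in KO. The operations did not overlap, and Rrm1 rose by 0.93 (SE 0.17, adjusted p = 0.0011), and so less than its partner Rrm2 on this scale, a difference that was not tested.

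Cyclin E activates Cdk2 at the start of S phase. Ccne1 lay at -0.44, -0.62, -0.87 and -0.40 in Cre sham and -0.40, -0.19, -0.32 and -0.65 in KO sham, and after TAC at 0.36, 0.52 and -0.41 in Cre and 0.24, 0.72, 0.81 and 0.18 in KO. It rose by 0.81 (SE 0.17, adjusted p = 0.0030), with Cre TAC replicate 3 inside the sham range, and a dimmer second probe gave 0.43. Ccne2 lay at -3.11, -3.29, -3.53 and -2.79 in Cre sham and -2.57, -3.64, -3.62 and -3.09 in KO sham, and after TAC at -2.36, -2.73 and -2.89 in Cre and -2.83, -2.96, -2.77 and -1.97 in KO. It was not called, with a fold of 0.56 (SE 0.21, adjusted p = 0.066); without KO sham replicate 1, the highest of them, the adjusted p was 0.025.

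Taken by genotype as filed, both TAC responses had the same direction for most members. In the groups filed as Cre 14 members rose and 0 fell, against 4.30% of features called higher and 1.64% lower (5.94% in all), and the median fold was 0.82 beside -0.050 over all features. Under median scaling 0 of these 14 were called, against 1.67% of features. Filed as KO, 23 rose and 1 fell (Rfc1), against 10.6% and 12.6% (23.2% in all), with a median of 0.98 beside 0.11. Both comparisons enter the mean effect, so they add no separate evidence to it. Over all features, the 1109 higher and 423 lower calls filed as Cre became 1111 and 694 with normexp, and 1970 and 2095 in the authors' values with scanner file genotypes (3995 and 4649 with the table's own). The 2730 and 3248 calls filed as KO became 769 and 1705 under median scaling. Nucleotide supply rose in full in both (4 of 4), licensing in 4 and 6 of 8, the helicase group in 2 and 3 of 3, polymerase and primase in 2 and 4 of 6, clamp and loader in 1 and 3 of 6, lagging strand in 1 and 2 of 3, and cyclin E in 0 and 1 of 2, for Cre and KO in turn.

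Tyms rose by 2.26 (SE 0.33, adjusted p = 0.0023) filed as Cre and by 2.35 (SE 0.31, adjusted p = 0.00029) filed as KO. For Rrm2 the folds were 1.95 (SE 0.39, adjusted p = 0.011) and 2.19 (SE 0.36, adjusted p = 0.00097), and for Prim2 1.29 (SE 0.19, adjusted p = 0.0021) and 1.42 (SE 0.17, adjusted p = 0.00018). Cdc6 was called in KO, with 2.13 (SE 0.47, adjusted p = 0.0055), and not in Cre, with 0.97 (SE 0.50, adjusted p = 0.35). Its highest array was KO TAC replicate 4, without which the KO fold was 1.65 (adjusted p = 0.0046). The second, dimmer Cdc6 probe had the opposite order over all arrays, with 1.07 (SE 0.59) in Cre and 0.80 (SE 0.54) in KO. The count for Cre varied with the array left out, as did the share of all features called. It was 8, 7, 6 and 7 without Cre sham replicates 1 to 4 in turn, against 3.95%, 3.28%, 3.01% and 4.02% of features called. It was 3 and 2 without replicates 1 and 2 of Cre TAC, against 2.39% and 1.60%. Without replicate 3 of Cre TAC 11 members stayed called, 3 were lost and Ccne1 was gained, against 7.12%. The count was 17 without KO TAC replicate 4, against 13.5%, and that array enters this fit through the spread alone. Prim2 and Tyms were the members called in Cre in each of the 15 fits that left out 1 array. Filed as KO, Mcm4, Mcm7 and Pcna were called only without KO TAC replicate 4 (adjusted p = 0.0038, 0.018 and 0.0078), when 26 rose and 1 fell, against 31.4% of features called. The Rfc1 call there was lost without any 1 of 11 arrays (adjusted p up to 0.11), those of Mcm2 and Mcm5 without any 1 of 4 (up to 0.065) and that of Lig1 without KO sham replicate 4 or KO TAC replicate 2 (up to 0.052).

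**Figure D3:**
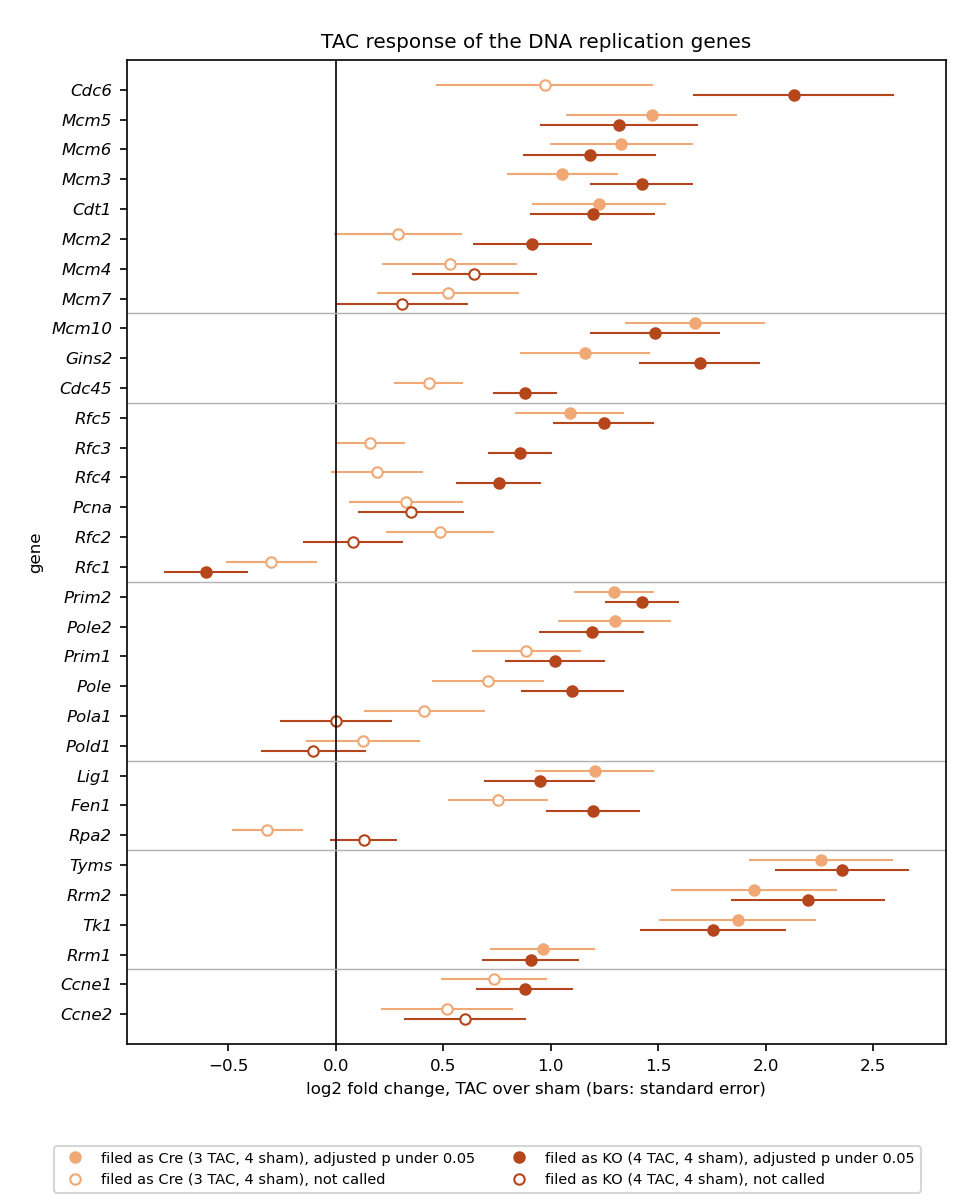
Log2 fold change of TAC over sham (x axis) with its standard error (bars) for 32 members (y axis, by role), for arrays filed as Cre and as KO. Filled points have an adjusted p under 0.05, which holds for 14 members in Cre and 24 in KO; 30 of 32 points lie above 0 in each.

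Between genotypes as filed 1 replication gene passed the test. After sham 0 of 32 members were called by limma, 0 had an unadjusted p under 0.05, and 0.0155% of features were called; member differences, KO minus Cre, ran from -0.36 to 0.27 with SE from 0.15 to 0.47. After TAC 1 of 32 members, Rfc3, was called, a share near the 3.05% of all features called. Rfc4 was the other member with an unadjusted p under 0.05. The Rfc3 difference was 0.85 (SE 0.16, adjusted p = 0.018), with KO TAC arrays at -1.86, -1.72, -1.81 and -1.51 and Cre TAC arrays at -2.80, -2.26 and -2.66, no overlap between them. Rfc4 had 0.59 (adjusted p = 0.16), again without overlap, and 0.38 (adjusted p = 0.12) without KO TAC replicate 4. These were the 2 of 32 members without overlap between the TAC groups. The share over all features was not counted, so the lack of overlap is not read as support. The Rfc3 call was lost without replicate 1 or replicate 3 of Cre TAC (adjusted p = 0.11 in both), kept without KO TAC replicate 4 (0.78, adjusted p = 0.011, against 8.83% of features), and had the opposite sign, -0.75 (adjusted p = 0.0013), in the authors' values with that table's genotypes. It was also lost under median scaling (adjusted p = 0.62), quantile normalization (0.31), normexp (0.15), in a fit of only the groups compared (0.33), with the replicate block (0.053) and under the operation of the description field (0.92), with folds of the same sign.

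The test of whether the TAC response itself differed between the genotypes called 0 of 32 members, against 0.0116% of features, and 1 member, Rfc3, had an unadjusted p under 0.05 (0.70, SE 0.22, adjusted p = 0.38). Member differences of response, KO minus Cre, ran from -0.41 to 1.16 (Cdc6) with a median of 0.11, and their SE from 0.22 to 0.69. The second, dimmer Cdc6 probe gave -0.28 (SE 0.80). Without KO TAC replicate 4 the member differences ran from -0.20 to 0.68 (again Cdc6) with a median of 0.29. There 0 members were called by limma, against 0.120% of features, and 2 had an unadjusted p under 0.05. Rfc3 stood at 0.62 (SE 0.20, adjusted p = 0.22). A member without a call is therefore not shown to respond alike in both genotypes.

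Each of the 4 slides held 1 array of each group, except that slide 2 had no Cre TAC array, so TAC and sham arrays could be compared within 7 pairs on the same slide. Across these pairs 22 members were higher after TAC in all 7, against 13.1% of all features, and Rfc1 was lower in all 7, from -1.17 to -0.26, as were 13.8% of features. The median over the 32 members was 0.85, 0.35 and 1.31 for Cre on slides 1, 3 and 4, and 1.25, 1.03, 0.94 and 0.71 for KO on slides 1 to 4. The lowest median thus came from Cre TAC replicate 3, and the pair with KO TAC replicate 4 was the lowest of the KO pairs. With slide as a block 24 members rose and 1 fell in the mean TAC effect, against 32.6% of features called.

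**Figure D4:**
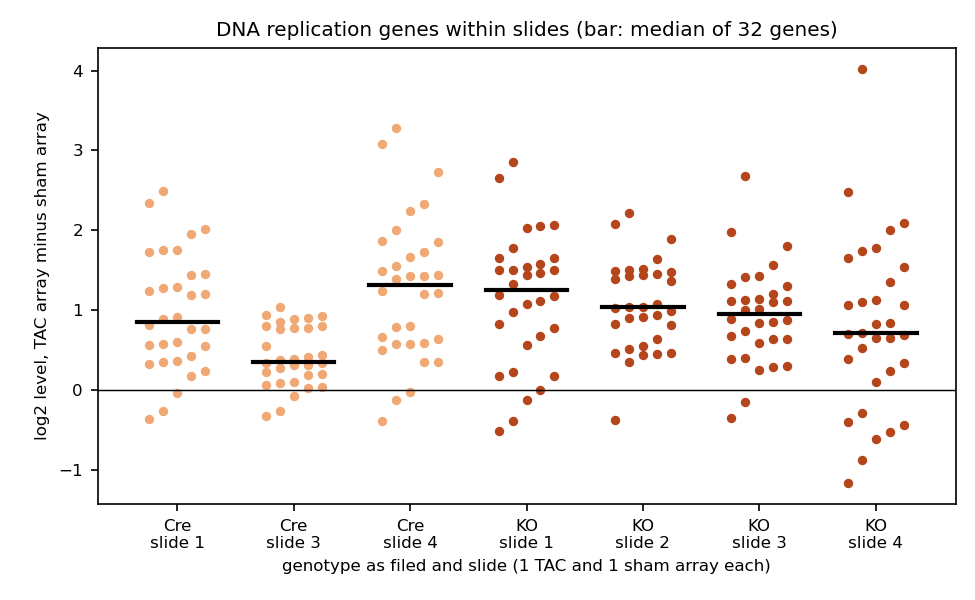
Log2 level of the TAC array minus the sham array of the same slide and genotype as filed (y axis) for 32 members (points) in 7 pairs (x axis); bars are medians. All 7 medians lie above 0, from 0.35 (Cre, slide 3) to 1.31 (Cre, slide 4).

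Other genes of replication and the cell cycle were read from lists beside the members, in the mean TAC effect. There 13.3% of all features were called higher and 13.7% lower. Of 31 other replication genes 11 rose and 4 fell, with a median of 0.26, and the part that fell was near the share over all features. Dscc1 and Chtf18, parts of the alternative clamp loader of sister chromatid cohesion, rose by 2.13 (SE 0.26) and 1.16 (SE 0.13), Dbf4, the activator of the Cdc7 kinase, rose by 1.52 (SE 0.17), and Orc5, a subunit of the origin recognition complex, fell by 0.69 (SE 0.099), each at adjusted p of 0.00026 or less. Of 12 other nucleotide genes 5 rose and 1 fell (median -0.024), among them Dctd by 0.99, Ctps by 0.90, Dck by 0.56 and Umps by 0.55. Replication-coupled chromatin genes rose in 5 of 6 cases, with a median of 1.27. Chaf1b and Chaf1a, subunits of the chromatin assembly factor, rose by 2.46 and 1.22, Uhrf1, which takes part in the upkeep of DNA methylation, by 2.23, and the histone chaperone Asf1b by 1.33.

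E2F and pocket protein genes were mixed, with 4 of 13 higher and 2 lower. Beside the counts of this paragraph in the mean TAC effect stand 13.3% of all features called higher and 13.7% lower. E2f1 rose by 1.86 (SE 0.30, adjusted p = 0.00054), the late repressors E2f7 and E2f8 by 1.03 and 1.02, and the pocket protein gene Rbl2 fell by 1.42 (SE 0.15, adjusted p = 3.9e-05). Of 7 cyclins and kinases of G1 and S phase measured of 8, Ccna2 rose by 2.79 (SE 0.30, adjusted p = 4.9e-05) and Ccnd2 fell by 1.05 (SE 0.21, adjusted p = 0.0021), while Ccnd3 (-0.17, adjusted p = 0.50) and Cdk6 (0.21, adjusted p = 0.52) were not called and Ccnd1 had no named probe. Cyclin-dependent kinase inhibitors went both ways, with 2 higher and 2 lower of 6: Cdkn1a, which encodes p21, rose by 1.86 (SE 0.25, adjusted p = 0.00019) and Cdkn2b by 1.14, and Cdkn1c fell by 1.38 and Cdkn1b by 0.52. Mitosis genes rose in 18 of 20 cases, with a median of 2.52: Plk1 by 2.93, Top2a by 2.94, Birc5 by 2.86, Kif20a by 2.41, Mki67 by 2.18 and Kif11 by 2.06. The exceptions, named after their values were seen, were Cenpf, which fell by 1.72, and Bub1 (-0.12, adjusted p = 0.55). Of the genes named from these lists, Dctd (1.26), Cdkn2b (1.04) and Rbl2 (-1.07) also differed between genotypes as filed after TAC (KO minus Cre, limma adjusted p = 0.024, 0.041 and 0.023). In that comparison 3.05% of all features were called, and 0.260% under median scaling. A fit of only the groups compared called 0 of 25787 features, so these calls were lost there. Filed as Cre and as KO in turn, 18 and 18 mitosis genes, 4 and 4 chromatin genes and 5 and 11 of the other replication genes rose. Of all features 4.30% and 10.6% were called higher in these comparisons.

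**Figure D5:**
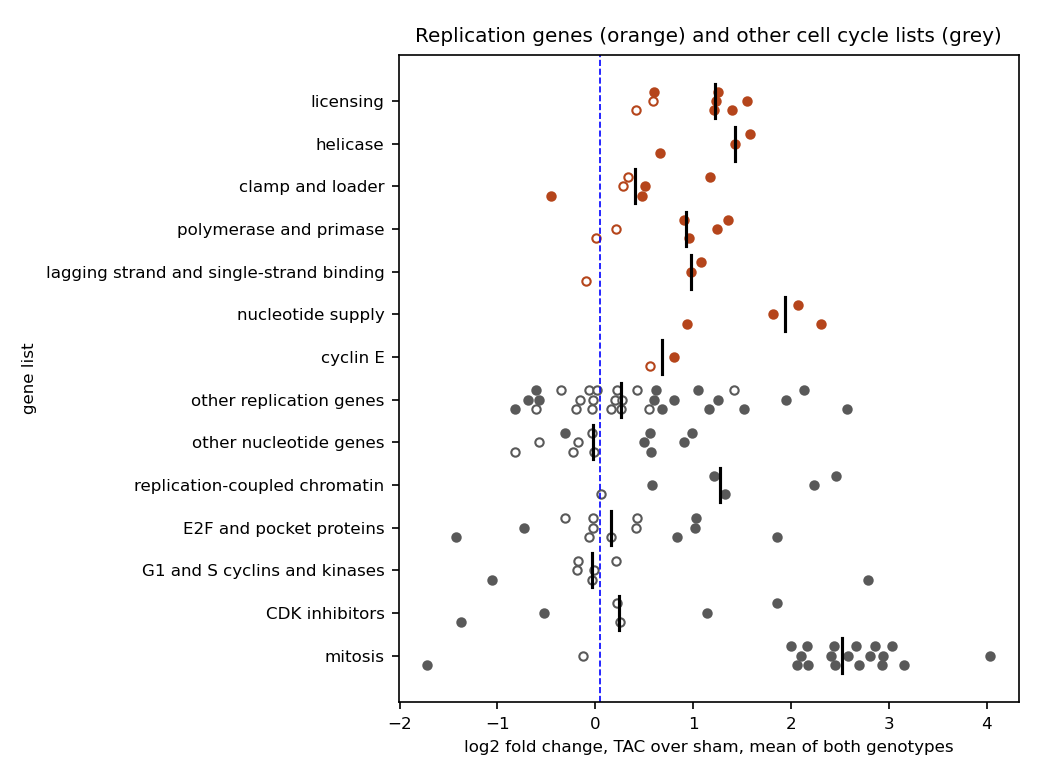
Log2 fold of TAC over sham in the mean of both genotypes (x axis) for the genes of the 7 replication role groups (orange) and 7 other cell cycle lists (grey). Points are genes, filled at an adjusted p under 0.05, black bars are list medians (1.94 for nucleotide supply, 2.52 for mitosis) and the dashed line is the median of all features, 0.044.

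Markers of some other cell types moved with the operation, and their part in the results was not tested. Over all features 13.3% were called higher and 13.7% lower in the mean TAC effect. Some of the counts below, such as that of the cardiomyocyte markers, lie near these shares. Summed levels are in units of the array's 75th percentile. Of 9 measured neutrophil markers 8 rose and 0 fell, with sums of 0.53 to 1.79 in Cre sham, 0.46 to 13.7 in KO sham, 9.22 to 11.8 in Cre TAC and 10.71 to 53.7 in KO TAC; 5 to 9 of the 9 were well above background on sham arrays and all 9 after TAC. Of 10 fibroblast markers 5 rose and 0 fell, with sums of 169 to 225, 189 to 373, 380 to 609 and 312 to 465 in the same order of groups. Of 14 macrophage markers 4 rose and 1 fell, with sums of 21.96 to 38.03, 27.1 to 54.1, 44.9 to 66.4 and 37.0 to 49.2. Of 10 endothelial markers 4 fell and 0 rose, with sums of 70.1 to 102, 62.2 to 93.4, 50.4 to 73.6 and 33.5 to 92.3. Of 11 lymphocyte markers 4 fell and 0 rose, with sums of 0.66 to 1.74, 0.88 to 1.63, 0.49 to 0.66 and 0.46 to 3.29. Of 9 smooth muscle and pericyte markers 3 rose and 3 fell, with sums of 90.2 to 142, 98.2 to 161, 103 to 161 and 87.0 to 194. Of 5 red blood cell markers 3 fell and 0 rose, with sums of 440 to 529, 290 to 711, 268 to 416 and 80.5 to 293. Of 13 cardiomyocyte markers 2 fell and 0 rose, with sums of 2521 to 2557, 2253 to 2978, 2269 to 2848 and 1431 to 2668.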

How the data were processed

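Per the labels' protocols, apex RNA was linearly amplified with Cy3 label for 1-colour arrays. Per the file headers, the deposited scanner files hold spot intensity values from Feature Extraction 10.7.3.1, background-subtracted in the processed signal and not scaled between arrays. The authors' deposited value table, an alternative here, is in log2 with a shared distribution across columns, as a comparison with the scanner values showed; the sources used here do not say how it treated background. The submitters' processing notes name limma without a version.

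Control spots were left out, outlier-flagged spots were set missing and spots of 1 probe averaged (41174 probes). Accessions were named through a RefSeq table (24844 probes, 17178 symbols). Values were log2 minus each array's 75th percentile. A probe entered when well above background on 3 or more arrays, each gene was read from its brightest probe, and unnamed probes were tested singly (25787 features). limma 3.58.1 (R 4.3.3) fitted 4 group means on all 15 arrays, with empirical Bayes and Benjamini-Hochberg adjustment, in 6 comparisons; the number of arrays limits the precision. Motifs were searched with Python 3.11.15 and pandas 2.3.3, and figures drawn with matplotlib 3.10.9.

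Array values were printed for up to 3 members of smallest p per role, members called in no TAC comparison and members called between genotypes; other lists gave up to 4 genes of smallest p, with E2f1, E2f7, E2f8, Cdkn1a, Ccnd1, Ccna2, Mki67, Top2a and Klf4. Members, lists and tests were chosen with earlier results of these data known. On simulated data with 200 changed of 25787 features, 46 of 100 changes of 1 on the log2 scale and 82 of 100 changes of 2 were recovered in the mean TAC effect, with 8 false among 136 calls, and 2 and 43 in the difference of responses, with 3 false among 48. The simulated errors were independent between arrays, and the measured data had 6971 calls in the mean TAC effect. The recovery in the simulation may therefore not hold for the measured data.

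Alternatives were median scaling, quantile normalization with and without normexp, the authors' values, other filters on dim probes, the mean over probes, outlier spots kept, slide (fixed or random) and replicate blocks, array weights, only the groups compared, the operation of the description field and each array left out.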

Additional observations from a re-analysis of the deposited data

Results flagged for a closer look

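Among 96 sets of 4 arrays (a member in Cre sham, KO sham or KO TAC), 4 had 1 array far from the other 3, where chance gives about 1 in 20. Cdc45 read -3.67 in Cre sham replicate 4, with the nearest of its group at -3.39. Pola1 read -1.65 in the same array, with the nearest at -0.84. Fen1 read -1.52 in Cre sham replicate 3, with the nearest at -1.0. Pole2 read -3.18 in KO sham replicate 1, with the nearest at -3.45.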

How the results depend on the processing

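In the mean TAC effect, 21 to 28 of the 32 members were called when 1 array was left out, and under each other alternative the count was 22 to 29 with a median fold from 0.73 to 1.02, except under median scaling (8 called) and under the operation of the description field (0 called, median -0.023, with 0 at an unadjusted p under 0.05 by limma). Features called, 6971 here, ranged from 3190 (median scaling) to 12685 (a slide block without KO TAC replicate 4), apart from 0 with the description field. The 2 settings that leave out KO TAC replicate 4 together with another change were chosen after seeing the data.

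Filed as Cre, members called (14, against 5.94% of features) were 0 under median scaling (1.67% of features; 12 members at an unadjusted p under 0.05), 9 under quantile normalization (5.23%), 8 without the filter on dim probes (3.27%), 27 in the authors' values under the labels of that table (33.5%; median 1.13), 23 with a slide block without KO TAC replicate 4 (22.1%), 0 with the description field (median -0.045), and 2 to 17 when 1 array was left out (1.60% to 13.5%). Filed as KO, they were 4 under median scaling (9.59%; median 0.62), 0 with the description field (median 0.0038), and 20 to 27 when 1 array was left out (17.4% to 31.4%). The median there was 0.72 in the authors' values under the labels of that table and 1.28 under median scaling without KO TAC replicate 4.

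Between genotypes after TAC, 0 members were called under median scaling (0.260% of features, median -0.16), quantile normalization (3.27%) and normexp (5.39%). The same held with only the groups compared (0 features) and the description field (0.00776%). There were 3 in the authors' values under the labels of that table (12.1% of features, median -0.25) and with array weights (13.1%). Without KO TAC replicate 4 there were 2 with a slide block (16.4%) and 3 with median scaling (9.95%, median 0.43). When 1 array was left out 0 to 1 were called (0.264% to 8.83%). The median difference of responses was -0.23 under median scaling, -0.22 in the authors' values under the labels of that table and 0.38 under median scaling without KO TAC replicate 4. The causes were not tested. The Rfc3 difference turned to -0.75 in the authors' values, by construction of the exchanged labels.

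Replicate numbers did not pair the arrays: deviations from the group means correlated at a median of -0.061 over 21 same-numbered pairs (-0.39 to 0.53) and -0.080 over pairs that shared neither number nor slide. With the replicate block 8 members were called in Cre, 24 in the mean effect, 23 in KO and 0 between genotypes after TAC. Of all features 3.63%, 24.0%, 20.4% and 1.17% were called there, in the same order. Arrays of 1 slide deviated together, with a median of 0.28 over 21 pairs.

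Under the operation of the description field, called members changed sign in the mean TAC effect (Pole -0.15, Mcm2 -0.096, Mcm10 -0.050, Tk1 -0.26, Rfc5 -0.042, Mcm6 -0.049, Rfc4 -0.17, Tyms -0.024, Rfc1 0.0047, Ccne1 -0.14, Rfc3 -0.093, Mcm3 -0.21, Cdc6 -0.54, Gins2 -0.37, Fen1 -0.22). In Cre this held for Rrm2 -0.057, Cdt1 -0.037, Mcm5 -0.0095, Tk1 -0.19, Rfc5 -0.076, Prim2 -0.028, Mcm6 -0.029, Tyms -0.19, Rrm1 -0.050 and Gins2 -0.12. In KO it held for Pole -0.22, Mcm2 -0.34, Mcm10 -0.15, Tk1 -0.32, Rfc5 -0.0069, Mcm6 -0.069, Rfc4 -0.22, Cdc45 -0.0027, Rfc1 0.056, Rfc3 -0.027, Mcm3 -0.52, Cdc6 -0.61, Gins2 -0.62 and Fen1 -0.39. No called member changed sign within the TAC comparisons under the other alternatives.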
